A study of Mus musculus with 12 samples.

Results

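The gene-level table of this microarray study of mouse cerebellum holds 23332 rows. Most are transcript clusters, which summarise probes from across a gene. A further 6577 rows are single probe sets, the small groups of probes that usually target 1 exon or a piece of one. The rows described here are the 1214 single probe-set rows whose probe set lies inside a gene that the exon-level annotation names. They were found by matching row identifiers between the gene-level and exon-level tables and requiring at least 1 gene symbol, and no measured value entered that choice. The gene-level annotation names none of them, and in that table alone they are rows without a gene. Of the 1214 rows, 1203 carry exactly 1 symbol and fall in 98 genes, and 11 carry several symbols and are left unnamed. The other 5363 single probe-set rows have no symbol.

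The samples were total RNA from the cerebellum of female mice at postnatal day 30. In one group were 3 NMF291-/- mice, which carry a deletion of 5 nucleotides in Rnu2-8, a gene for U2 small nuclear RNA, and in the other 3 wild-type mice matched for age and sex. Each RNA was hybridised to 1 Affymetrix Mouse Exon 1.0 ST array, and the series design calls the 3 mice of a group biological replicates. U2 small nuclear RNA is a core component of the spliceosome and recognises introns by base-pairing with their branch point. Most genes have several probe sets on this array, and when an exon is skipped, the probe set of that exon can change while those of the rest of the gene do not. A probe set is therefore read in 2 ways below: by its own level, and by its index, its level minus the median of the other probe sets of the same gene on the same array. All levels are deposited log values taken as log2, and all differences are mutant minus wild type.

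Many of the 98 genes serve functions that nearly every cell uses. Among them are the coat proteins and GTPases that carry cargo between the endoplasmic reticulum and the Golgi, ubiquitin ligases and proteasome subunits, RNA-binding proteins, ribosomal proteins and parts of the endosome and lysosome. Coat proteins bud vesicles, small GTPases direct them, and ubiquitin ligases tag proteins that the proteasome then degrades. None of the 98 genes belongs to the marker lists of microglia, astrocytes, oligodendrocytes, Purkinje cells, granule neurons, endothelium, blood or choroid plexus used here. A gene had a median of 9 such rows and at most 52. The 5 genes with the most rows were Anapc1 with 52, Copa with 40, Itch with 39, Cic with 37 and Gbf1 with 35, a number shared by Xpo7. In 44 of the genes every probe set with that single symbol was one of these rows, 426 further probe sets of the 98 genes were found in the exon-level table only, and 10 genes had 1 row each. Of the 98 genes, 97 code for protein and Tug1 is a long noncoding RNA, and they lie on 20 chromosomes.

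The tissue label was checked on transcript clusters. Granule neuron markers had mean levels of 12.16 to 12.72 in the mutant and 12.59 to 12.73 in wild type, but Gabra6 among them was lower in the mutant by a difference of -0.46 (limma adjusted p = 0.0165), and the forebrain gene Tbr1 was at 7.25 in the mutant and 7.05 in wild type. Microglia markers were higher in the mutant, at 8.67 to 9.44 against 7.66 to 8.50 in wild type for 5 defining markers, and of the 21 measured clusters of the full microglia list 15 passed the test upwards. The mean of that list was 8.57, 9.16 and 8.72 on the mutant arrays and 7.90, 7.89 and 7.82 on the wild-type arrays. The astrocyte gene Gfap was at 10.64 in the mutant and 9.17 in wild type, a difference of 1.48 (adjusted p = 0.0272). Of the 15 measured clusters of the full astrocyte and Bergmann glia list, however, only 1 passed, and the list's median difference was -0.016. Mutant replicate 3 had a choroid plexus list mean of 7.77, below the 8.86 to 9.06 of the other 5 arrays. The part of these differences in the results below was not tested. In RNA from whole tissue, fewer cells of a type and less RNA per cell cannot be told apart.

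The rows in named genes were well expressed and measured tightly. Their mean levels ran from 2.71 to 13.52, with a median of 9.996. The median over the rows was 10.03, 10.03 and 10.04 on the mutant arrays and 9.997, 9.97 and 9.95 on the wild-type arrays, so the mutant arrays were slightly higher as deposited. Only 18.5% of them lay below the median of the exon-level table, 8.55, whereas 80.4% of the single probe-set rows without a symbol did, at a median of 7.17. The remaining probe sets of the same genes had a median of 10.30. The spread between mice of 1 genotype had a median SD of 0.10 among the rows, against 0.21 among rows without a symbol and 0.15 over all probe sets. It was no wider in the remaining probe sets of the same genes, at 0.09, nor in transcript clusters, at 0.07. The highest levels were those of Ddb1 probe set 5335089, Rab7 probe set 5092750 and Psap probe set 5225433, and the lowest those of Angel2 probe set 5212516, Tomm5 probe set 4315357 and Rbm42 probe set 4632525.

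**Figure D1:**
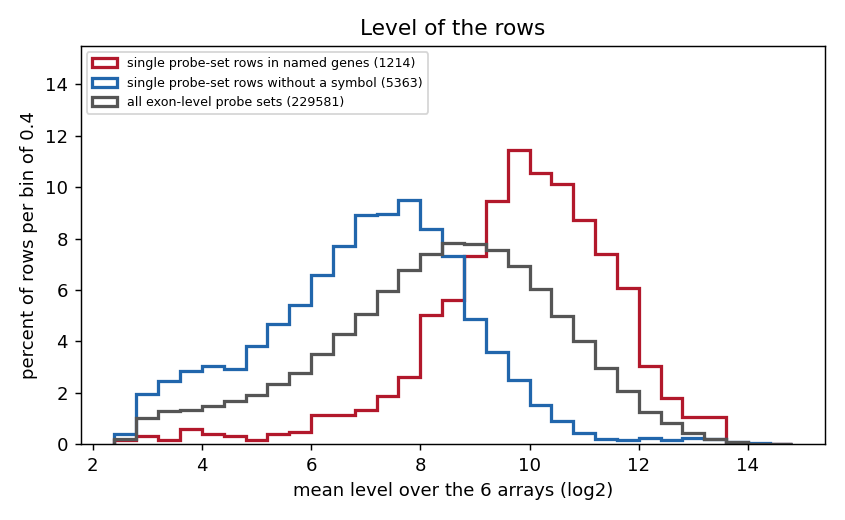
Distribution of the mean log2 level over the 6 arrays (x axis) as percent of rows per bin (y axis), for the 1214 single probe-set rows in named genes, the 5363 single probe-set rows without a symbol and all 229581 exon-level probe sets. The rows in named genes centre near 9.996 and those without a symbol near 7.17.

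Few of the rows differed between the genotypes, and those that did moved by little. With limma fitted over the whole gene-level table and Benjamini-Hochberg adjustment over its rows, 42 of the 1214 rows passed an adjusted p of 0.05, 33 higher and 9 lower in the mutant. That is 3.46% of them, below the 5.75% of all rows of the table that passed (3.94% higher and 1.81% lower), and between the genotypes the rows' values did not overlap in 364 of them, or 30%, the same share as the 30% of the whole table. At an unadjusted p under 0.05 stood 288 rows (23.7%), beside 23.0% of the table. The median difference was 0.04 over the rows and 0.02 over the table, and 922 rows (75.9%) lay within 0.2 of 0, beside 76.2% of the table. Of the 42, 37 moved by under 0.5 and 5 by 0.5 or more, and 1 of the 1214, in Mtif2, moved by over 1. Of the 42, 39 have 1 symbol and lie in 17 genes, 12 of them with rises and 6 with falls, Itch having both, while 3 are among the rows with several symbols.

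The balance of rises and falls depended on the scaling: 33 of 42 calls (78.6%) were higher with the values as deposited, 24 of 36 (66.7%) after quantile normalization and 15 of 28 (53.6%) after median centring. The calls also depended on which table and arrays entered the fit. When the same values were fitted within the exon-level table, 1 row passed (Naa35; 1.00% of that table passed), and leaving out 1 array left 1 row without mutant replicate 1, 1 without mutant replicate 2, none without mutant replicate 3 (233 at an unadjusted p under 0.05), 7 without wild-type replicate 1 and 1 without wild-type replicate 2 or 3. Naa35 was the row that passed where 1 did.

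**Figure D2:**
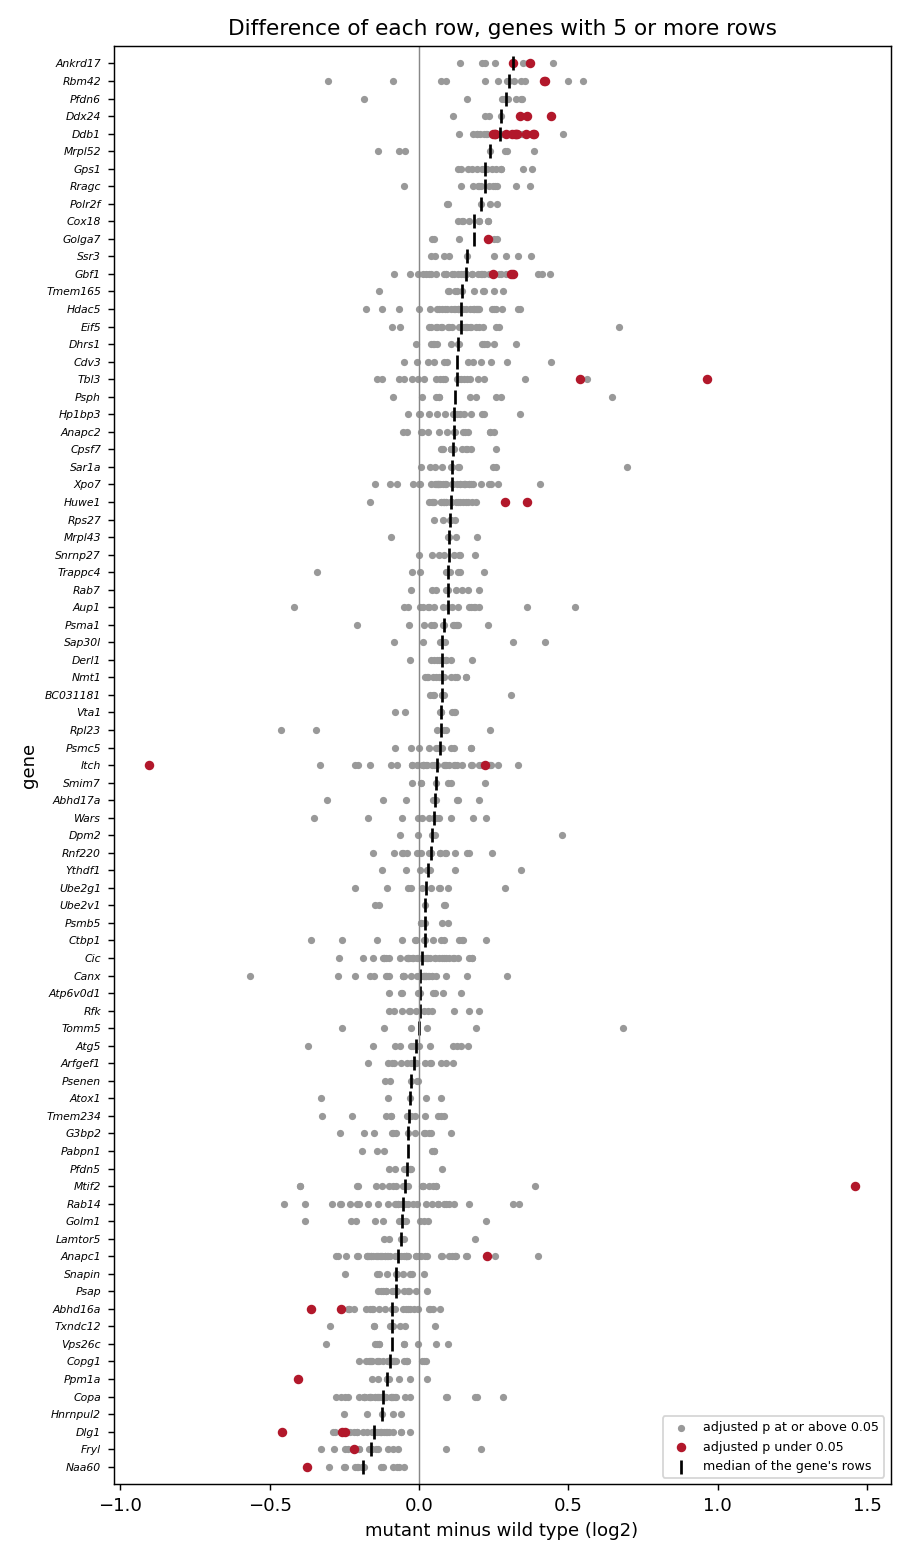
Difference of each row, mutant minus wild type (x axis, log2), for the 81 genes with 5 or more rows (y axis), with red points for rows past an adjusted p of 0.05 and a black tick at the gene's median. Gene medians run from -0.19 in Naa60 to 0.32 in Ankrd17, Ddb1 holds 11 red points, and the Mtif2 row at 1.46 lies far to the right of the rest.

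Among genes for ubiquitin ligases, cullin regulators and the proteasome, 13 genes with 240 rows, 15 rows rose and 1 fell, with a median difference of 0.08. That is 6.67% of them, beside 5.75% of the whole table, and after median centring 5 rose and 1 fell. Most of the 15 rises were in Ddb1, the adaptor that joins substrate receptors to the CUL4 ubiquitin ligase and takes part in recognising damaged DNA. All 29 Ddb1 rows had positive differences, from 0.13 to 0.48 with a median of 0.27, and 11 of them rose. After quantile normalization 9 rose and after median centring 5, with all 29 still positive. The Ddb1 row with the largest change that passed, probe set 4564163, read 10.94, 10.92 and 11.05 in the mutant, against 10.63, 10.60 and 10.51 in wild type. Every mutant array lay above every wild-type array there, a rise of 0.39 ± 0.06 (SE, limma adjusted p = 0.027). The brightest, 5335089, read 13.58, 13.59 and 13.66 in the mutant and 13.43, 13.42 and 13.41 in wild type, a difference of 0.19 that did not pass (adjusted p = 0.060).

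The transcript cluster of Ddb1, which summarises the same gene on the same arrays and so is not independent of its rows, was at 10.78 ± 0.04 in the mutant and 10.50 ± 0.04 in wild type (SD, n = 3 each), a rise of 0.28 ± 0.04 (SE, adjusted p = 0.029), and with any 1 array left out its adjusted p was 0.061 to 0.095. The median of the 29 Ddb1 probe sets differed by 0.24, which did not pass (limma adjusted p = 0.133). The rows of 1 gene share each mouse's transcripts and are not separate replicates. The Ddb1 rows and the 7 Ddx24 rows described below were positive throughout, as were the rows of 14 genes with 5 or more rows in all. The RefSeq promoters of Ddb1 and Ddx24, chosen with the results known, are shown (300 bases across the start, assembly GRCm38.p6). They are chr19:10605347-10605646 on the plus strand for Ddb1 and chr12:103425798-103426097 on the minus strand for Ddx24. Capitals mark the letters GGGCGG or their reverse complement CCGCCC, known as a GC box, and CCAAT.
Ddb1: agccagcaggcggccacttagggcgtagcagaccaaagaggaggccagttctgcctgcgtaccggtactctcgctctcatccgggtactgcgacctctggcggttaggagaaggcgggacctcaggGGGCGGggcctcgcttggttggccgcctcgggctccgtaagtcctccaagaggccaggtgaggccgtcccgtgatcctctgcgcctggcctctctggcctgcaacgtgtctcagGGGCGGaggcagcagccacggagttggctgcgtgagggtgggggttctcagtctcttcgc
Ddx24: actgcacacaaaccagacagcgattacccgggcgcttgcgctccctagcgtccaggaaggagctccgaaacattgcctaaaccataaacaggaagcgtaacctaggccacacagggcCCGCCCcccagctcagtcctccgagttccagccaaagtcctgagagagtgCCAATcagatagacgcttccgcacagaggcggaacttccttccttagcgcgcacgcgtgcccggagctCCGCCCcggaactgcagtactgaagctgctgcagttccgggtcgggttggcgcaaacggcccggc

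GGGCGG was found 2 times in the Ddb1 window and 2 times in the Ddx24 window, on either strand, and CCAAT 1 time in that of Ddx24. Of the 32851 RefSeq mouse promoters of this length, 35.7% hold GGGCGG and 37.4% hold CCAAT on either strand, so both are common letters. The letters TATAAA and CCGGAAG, searched the same way and held by 13.6% and 8.86% of promoters, were in neither window. These matches describe sequence only.

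The other rises of this group were 2 in Huwe1, 1 in Itch and 1 in Anapc1. Huwe1 codes for a large ubiquitin ligase of the HECT family, and its probe set 5568698 read 10.85, 10.77 and 10.97 in the mutant and 10.54, 10.47 and 10.50 in wild type. The groups did not overlap, and the rise of 0.36 ± 0.06 (adjusted p = 0.034) did not pass after median centring. Of 25 Huwe1 rows 24 were positive, but the gene has 97 probe sets, and their median differed by 0.01 (limma adjusted p = 0.94). The Huwe1 transcript cluster differed by 0.08 (adjusted p = 0.322). Anapc1, the scaffold subunit of the anaphase-promoting complex, had 15 positive differences among 52 rows, and the 1 that rose, probe set 5422198 at 0.23, did not pass under either other scaling. Gps1, a subunit of the COP9 signalosome that regulates cullin ligases, had 14 positive differences of 14, with a median of 0.22, of which none passed. The proteasome list used here, with 30 rows in the subunits Psma1, Psmb5 and Psmc5, had 25 positive differences, none past the test. The row with the smallest p in each was at 0.12 in Psma1, 0.11 in Psmc5 and 0.10 in Psmb5.

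Of the RNA helicases, processing factors and RNA-binding proteins, 12 genes with 101 rows, 7 rows rose and none fell, with a median difference of 0.08. That is 6.93% of them, beside 5.75% of the whole table, and after median centring 5 rose and none fell. Ddx24, a DEAD-box RNA helicase, had 7 positive differences of 7, and 3 of its rows rose. Its probe set 5603369 read 11.32, 11.37 and 11.21 in the mutant, against 10.90, 10.91 and 10.76 in wild type, without overlap, a rise of 0.44 ± 0.07 (SE, adjusted p = 0.027). Its transcript cluster rose by 0.30 (adjusted p = 0.027). Rbm42, a protein with an RNA recognition motif, had 13 positive differences of 15 and 2 rises. Probe set 5278494 of Rbm42 read 10.62, 10.64 and 10.79 in the mutant and 10.22, 10.34 and 10.21 in wild type, a rise of 0.42 ± 0.07 (adjusted p = 0.028) with no overlap.

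Tbl3, a WD-repeat protein of the small-subunit processome that matures ribosomal RNA, held the second largest rise. Its probe set 4435887 read 8.79, 8.73 and 8.48 in the mutant and 7.80, 7.97 and 7.34 in wild type. All 3 mutant values lay above all wild-type values, with wild-type replicate 3 the lowest, and the rise was 0.96 ± 0.18 (SE, adjusted p = 0.039). A further Tbl3 probe set, 4941432, rose by 0.54 (adjusted p = 0.020), whereas the 23 Tbl3 rows had a median of 0.13 and the transcript cluster a difference of 0.12 (adjusted p = 0.288). Ilf2 had 1 row, at 0.39 (adjusted p = 0.104), and a transcript cluster that rose by 0.31 (adjusted p = 0.030). None of the 5 rows of Hnrnpul2, the member of the splicing regulator list, passed, and all 5 were negative, down to -0.25.

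Of the genes for translation, ribosomes and N-terminal protein modification, 12 genes with 115 rows, 2 rows rose and 1 fell (2.61% together), with a median difference of 0.05. The largest difference in level that passed was in Mtif2, an initiation factor of mitochondrial translation. Its probe set 5326370 read 4.67, 5.26 and 4.30 in the mutant, against 3.33, 3.07 and 3.45 in wild type. Every mutant value was above every wild-type value, and the difference was 1.46 ± 0.25 (SE, adjusted p = 0.033). The wild-type values lie near the lowest value of the tables, 2.32, and whether the probe set was above background there was not tested. The Mtif2 transcript cluster differed by -0.10 (adjusted p = 0.369).

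Naa35, annotated under its older symbol Mak10, codes for an auxiliary subunit of the NatC N-terminal acetyltransferase, and its only row had the smallest adjusted p of the 1214. Probe set 4353460 read 6.61, 6.68 and 6.66 in the mutant and 6.08, 6.13 and 6.13 in wild type. The groups did not overlap, the 3 values of each lay within 0.1 of one another, and the rise was 0.54 ± 0.04 (SE, adjusted p = 0.0080). Leaving out 1 array at a time gave adjusted p-values of 0.032 to 0.051. The Naa35 transcript cluster rose as well, by 0.44 (adjusted p = 0.028).

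Naa60, an N-terminal acetyltransferase of the Golgi membrane, went the other way. Its probe set 4547419 read 10.07, 10.09 and 10.04 in the mutant and 10.44, 10.52 and 10.37 in wild type, a difference of -0.38 ± 0.05 with no overlap (SE, adjusted p = 0.024). All 16 Naa60 rows were negative, with a median of -0.19, but 1 of them passed, and the transcript cluster differed by -0.21 (adjusted p = 0.073). Of the ribosomal proteins, 11 rows in Rpl23 and Rps27 held 9 positive differences and none passed. The translation factor list, 39 rows in the initiation factor Eif5 and the tryptophanyl-tRNA synthetase Wars, had 33 positive differences with a median of 0.10, and none passed. The row with the smallest p was at 0.27 in Eif5 (adjusted p = 0.110) and at 0.18 in Wars (adjusted p = 0.089).

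Transcription and chromatin genes, 8 genes with 120 rows, had 2 rises (1.67%) and no fall. Both were in Ankrd17, a protein of ankyrin repeats, in which 9 of 9 differences were positive with a median of 0.32, the highest of any gene with 5 or more rows. The median of all 46 Ankrd17 probe sets differed by 0.15 (limma adjusted p = 0.273) and the transcript cluster by 0.18 (adjusted p = 0.066), and neither passed. Ankrd17 probe set 5216631 read 11.09, 11.13 and 11.08 in the mutant and 10.75, 10.80 and 10.64 in wild type, without overlap, a rise of 0.37 ± 0.05 (SE, adjusted p = 0.026). Hdac5, a class II histone deacetylase, had 28 positive differences of 32 and Cic, the transcriptional repressor that binds ataxin-1, 19 of 37, and none of their rows passed. The list row of Polr2f, a subunit shared by the RNA polymerases, was at 0.26 (adjusted p = 0.084).

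Genes of the endoplasmic reticulum, Golgi and coated vesicles were the largest group by rows, 16 genes with 254 rows, and held 4 rises (1.57%) and no fall. Of these, 3 were in Gbf1, which activates Arf GTPases at the Golgi and had 32 positive differences of 35. Probe set 4467166 of Gbf1 read 11.20, 11.21 and 11.20 in the mutant, against 10.89, 10.99 and 10.78 in wild type, a rise of 0.31 ± 0.06 without overlap (adjusted p = 0.047). Golga7, a Golgi protein that partners a palmitoyltransferase, rose by 0.23 ± 0.04 in probe set 4407824 (adjusted p = 0.042), and its 6 rows were all positive. After median centring no row of this group rose and 2 fell, and after quantile normalization 1 Gbf1 row and no Golga7 row rose.

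The coat subunits had mostly negative differences, and none of their rows passed with the values as deposited. Copa, the alpha subunit of the COPI coat, had 5 positive differences among 40 rows with a median of -0.12, and Copg1, a gamma subunit, 3 among 28 with a median of -0.10. The Copg1 row with the smallest p, probe set 4363826, read 10.39, 10.35 and 10.44 in the mutant and 10.61, 10.58 and 10.60 in wild type, without overlap (difference -0.20, adjusted p = 0.054). This row passed after quantile normalization (limma adjusted p = 0.040) and after median centring (limma adjusted p = 0.047). Canx, the lectin chaperone calnexin of the endoplasmic reticulum, had 17 positive differences among 31 rows and a median of 0.0046. The vesicle transport list held 111 rows in Copa, Copg1, Rab14, Rab7 and Sec22b, of which 28 were positive. Their median was -0.09, and none passed as deposited. The list's rows with the smallest p also include Copa probe set 5550334 at -0.24 (adjusted p = 0.076) and Rab14 probe set 5168732 at -0.21 (adjusted p = 0.098). That Copa row passed after median centring (limma adjusted p = 0.039).

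None of the 121 rows in 11 genes of the endosome, lysosome, autophagy and mTORC1 anchoring passed, with a median difference of -0.03. They include the endosomal GTPases Rab7 and Rab14, the autophagy gene Atg5, the mTORC1 anchors Lamtor5 and Rragc and the saposin precursor Psap. Psap had 1 positive difference among 17 rows and a median of -0.08, and its brightest probe set, 5225433, read 13.42, 13.41 and 13.50 in the mutant and 13.56, 13.59 and 13.55 in wild type (difference -0.13, adjusted p = 0.175). None of 109 rows in 10 genes of mitochondria, metabolism, protein folding and nuclear transport passed either, with a median of 0.08. The lysosome list, 26 rows in Psap and in Atp6v0d1, a subunit of the proton pump of lysosomes, had 6 positive differences. Xpo7, a nuclear export receptor, had 30 positive differences of 35.

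Genes of synapse, polarity and signalling, 6 genes with 66 rows, held 5 falls and no rise, with 60 negative differences and a median of -0.14. Called rows were 7.58% of the group, beside 5.75% of the whole table (1.81% lower). Dlg1 held 28 of the negative differences and Fryl 15, and 2 of the 6 genes had positive medians. Beside these falls, 4 of 14 granule neuron clusters passed downwards and 1 upwards, with a list median of -0.05. Of the presynaptic release list, 7 of 23 clusters passed downwards and 0 upwards. Among all 16755 transcript clusters 390 passed downwards. The part of the granule neuron and presynaptic clusters in the falls was not tested. Dlg1, a membrane scaffold of synapses and cell junctions, had 28 negative differences of 28, from -0.46 to -0.03, also after median centring, and 3 of its rows fell. Its probe set 4819021 read 9.81, 9.90 and 9.93 in the mutant, against 10.53, 10.23 and 10.25 in wild type, without overlap (difference -0.46 ± 0.09, adjusted p = 0.047). The Dlg1 transcript cluster was at 10.57 ± 0.04 in the mutant and 10.72 ± 0.04 in wild type (SD, n = 3 each), a difference of -0.15 that did not pass (adjusted p = 0.124).

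Ppm1a, a phosphatase of stress and TGF-beta signalling, fell in 1 of 9 rows. Probe set 5213946 read 9.48, 9.62 and 9.50 in the mutant and 9.79, 10.003 and 10.04 in wild type (difference -0.41 ± 0.08, adjusted p = 0.048), again without overlap. Cdc42, the GTPase of cell polarity, had 1 row, at 0.17 (adjusted p = 0.236). Fryl, a relative of the Furry protein, fell in probe set 5028779 (difference -0.22 ± 0.04, adjusted p = 0.040). Outside this group, Abhd16a, a lipase that acts on phosphatidylserine, fell in 2 of 25 rows, among them probe set 5224818 (difference -0.36, adjusted p = 0.045), and 4 of its rows were positive.

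**Figure D3:**
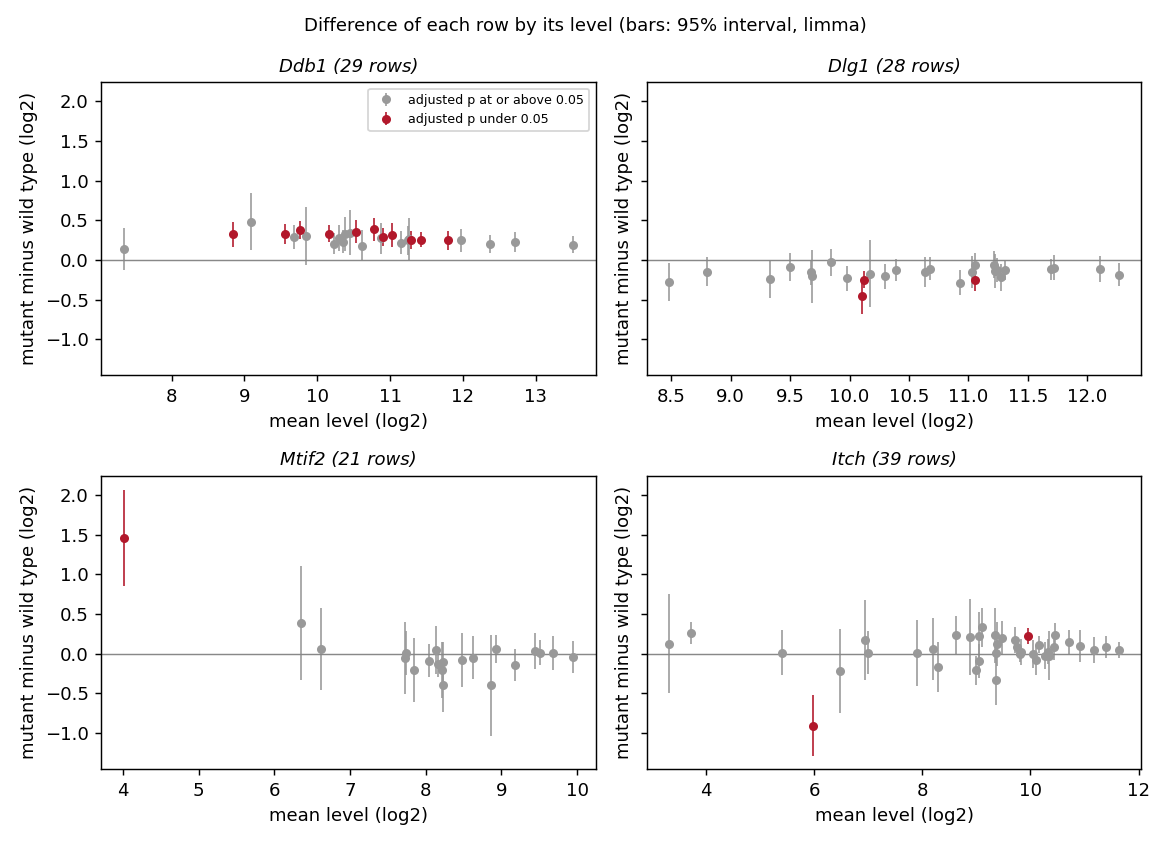
Difference of each row, mutant minus wild type (y axis, log2, bars are 95% intervals from limma), against its mean level (x axis, log2) in Ddb1, Dlg1, Mtif2 and Itch, with red points past an adjusted p of 0.05. All 29 Ddb1 rows lie above 0 and all 28 Dlg1 rows below it at every level, while in Mtif2 and Itch 1 dim row stands apart from a gene near 0.

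Of the 98 genes, 81 had 5 or more rows, and in 46 of those the median difference was within 0.1 of 0. The rows of a gene all lay on the positive side in 14 genes and all on the negative side in 4, namely Naa60, Dlg1, Hnrnpul2 and Psenen. Both counts are for the values as deposited and depended on the scaling. In Nmt1 13 of 13 rows were positive as deposited and 9 after median centring, and in Psap 1 of 17 and then 0. Over all 1214 rows 60.3% were positive as deposited and 48.1% after median centring. Levels of the rows of 1 gene spread by a median SD of 1.22, far more than the differences between genotypes. The transcript clusters of 82 of the genes could be set beside the rows, and 4 of them passed, those of Ddb1, Ddx24, Ilf2 and Naa35, all higher in the mutant, where 6.39% of all transcript clusters passed.

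Set against their own genes, none of the rows passed. The index could be formed for 1202 rows in genes with at least 4 probe sets, and limma over all 205449 probe sets with an index called 0 of them and 0 probe sets in all (0%). At an unadjusted p under 0.05 stood 63 rows (5.24%), 33 positive and 30 negative, below the 8.44% of all probe sets. The smallest adjusted p was 0.204 among the rows and 0.109 over all. On simulated arrays this limma test of the index called 35 of 100 planted differences of 1 and 80 of 100 of 2. A difference of 1 can thus go uncalled, and smaller ones were not planted. An index difference of 0.5 or more in size was found in 14 rows (1.16%), against 3.77% of all probe sets. diffSplice, the test of exon usage in limma, called 11 rows, 5 upwards and 6 downwards, or 0.915%, beside 0.970% of all probe sets (0.552% upwards and 0.418% downwards). It pools the spread of a gene's probe sets, and on simulated arrays most of its calls were false.

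The 3 rows with the largest index differences between the genotypes lie in Mtif2, Itch and Tbl3. In Mtif2 the other probe sets had medians of 8.35, 8.11 and 8.13 in the mutant and 8.48, 8.38 and 8.32 in wild type, and these overlapped. The index differed by 1.65 with a 95% interval of 1.02 to 2.29 (limma adjusted p = 0.270, unadjusted p = 0.00048). The row lay 4.29 below its gene on average, and of the 21 Mtif2 rows 9 had positive differences.

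Itch codes for a HECT ubiquitin ligase, and its probe set 4645251 was the only row that fell by over 0.5 and passed. It read 5.82, 5.38 and 5.41 in the mutant, against 6.36, 6.67 and 6.28 in wild type. The groups did not overlap, and the level was lower by 0.90 in the mutant (difference -0.90 ± 0.16, adjusted p = 0.034). The other Itch probe sets had medians of 9.69, 9.57 and 9.55 in the mutant and 9.53, 9.61 and 9.54 in wild type, with overlap. The index differed by -0.95 with a 95% interval of -1.27 to -0.63 (limma adjusted p = 0.204, unadjusted p = 0.00022), the smallest p of the rows. Of 39 Itch rows 28 were positive, and 1 of them, probe set 4605982, rose by 0.22 (adjusted p = 0.042), though not after quantile normalization or median centring.

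In Tbl3 the other probe sets had medians of 8.29, 8.46 and 8.46 in the mutant and 8.16, 8.28 and 8.32 in wild type. The index of probe set 4435887 differed by 0.82 with a 95% interval of 0.31 to 1.32 (adjusted p = 0.424). Its index was above 0 on the 3 mutant arrays and below 0 on the 3 wild-type arrays. These 3 rows were also the 3 with the smallest diffSplice p-values among the 11. diffSplice sets the same probe sets against their genes on the same arrays, so its order is not independent of the index.

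**Figure D4:**
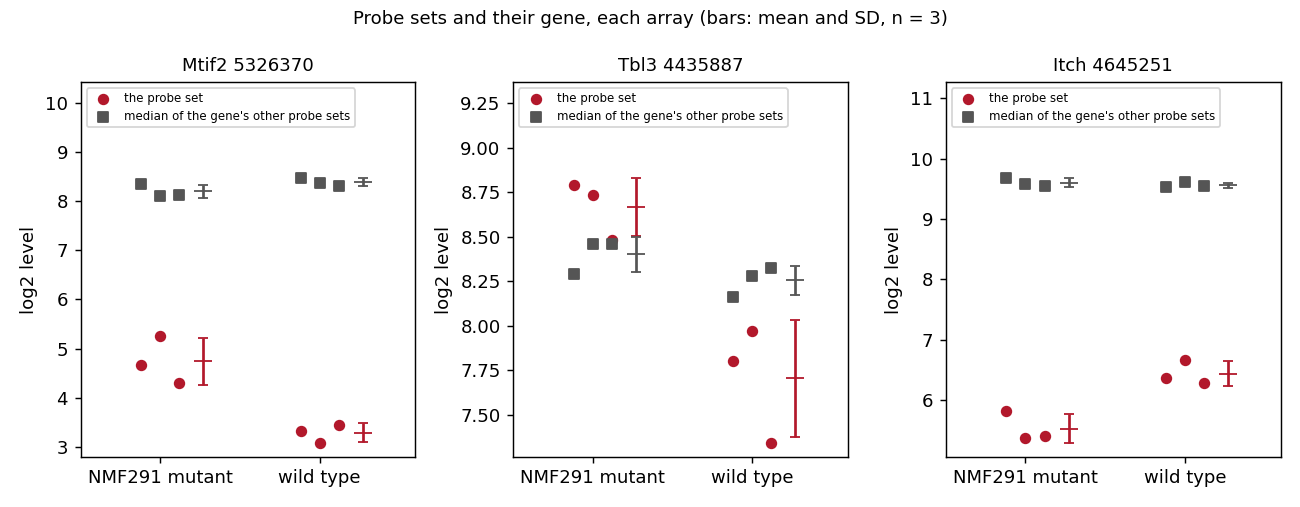
Level on each array (y axis, log2) of a probe set (red) and of the median of its gene's other probe sets (grey) in NMF291 mutant and wild-type mice (x axis), with mean and SD (n = 3) beside the points. The Mtif2 and Tbl3 probe sets are higher and the Itch probe set lower in the mutant, while the grey medians differ by under 0.2.

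The remaining rows named by their index did not pass and moved less. Upwards they were Dpm2 probe set 4329256 at 0.51, in a regulator of dolichol-phosphate mannose synthesis, Tomm5 probe set 4539222 at 0.45, in a small subunit of the mitochondrial import pore, and Huwe1 probe set 5568698 at 0.34. Downwards they were Rpl23 probe set 5532577 at -0.51, Pfdn6 probe set 4370814 at -0.51, in a prefoldin subunit, Trappc4 probe set 4677121 at -0.48, in a vesicle tether, and Tomm5 probe set 4714551 at -0.45. Each of the 2 Tomm5 probe sets is the median of the others for its partner, so their values mirror each other and count once. In Pfdn6 the gene's other probe sets were at 10.03, 10.19 and 10.20 in the mutant and 9.78, 9.80 and 9.88 in wild type while probe set 4370814 read 8.68, 8.53 and 8.50 in the mutant and 8.65, 8.81 and 8.82 in wild type. Of Pfdn6's 8 rows 7 were positive, and this one was the exception.

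For several rows that passed by level the interval of the index spanned 0. Ddb1 probe set 4564163 had an index difference of 0.11 with an interval of -0.09 to 0.31, Ddx24 probe set 5603369 one of 0.05 (-0.18 to 0.28), Naa35 probe set 4353460 one of 0.06 (-0.19 to 0.31) and Naa60 probe set 4547419 one of -0.13 (-0.40 to 0.14). For Fryl probe set 5028779 the interval was -0.23 to 0.22. Ppm1a probe set 5213946 was lower against its gene by more, with an index difference of -0.35 (-0.61 to -0.10), as was Dlg1 probe set 4819021 at -0.27 (-0.54 to -0.01), and neither passed (adjusted p = 0.467 and 0.584).

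The offset, a row's level minus the median of its gene's other probe sets averaged over the 6 arrays, had a median of -0.0024 and quartiles of -0.86 and 0.74, and 168 of 1202 were 2 or more away. In 44 genes all probe sets with that single symbol are these rows, so a median near 0 follows from how the offset is formed. Against probe sets outside these rows the median was 0.38 over the 390 rows with enough of them, 233 of them above 0. Probe sets differ in how brightly they hybridise, so an offset is no measure of how much of an exon is used. The highest offsets were in Rab14 probe set 5615807, 4.98 above its gene, followed by rows of Prorsd1 at 3.34, Cdv3 at 3.21, and Ctbp1 and Ddb1 at 2.93 each. The lowest was in Copa probe set 4492151, which lay 8.19 below its gene (offset -8.19) and read 3.40, 3.54 and 3.01 in the mutant and 3.14, 2.93 and 3.03 in wild type, overlapping. Rows of BC031181 at -7.98, Angel2 at -7.03, Rpl23 at -6.87 and Lamtor5 at -6.51 followed. The Rpl23 row, probe set 5600952, read 5.005, 5.29 and 2.85 in the mutant and 5.94, 3.59 and 5.005 in wild type, the widest scatter of the rows named here.

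The 11 rows with several symbols have no index, since no single gene could be set against them. They fall into 8 rows that share 1 pair of symbols and 3 that share another. Of the first 8, 3 rose, by 0.38 (adjusted p = 0.016), 0.30 (adjusted p = 0.031) and 0.28 (adjusted p = 0.0499), each without overlap of the groups. None of the other 3 passed.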

How the data were processed

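The authors deposited, for each of 6 arrays, a gene-level and an exon-level table of log values, per the labels 3 NMF291-/- and 3 wild-type mice. The deposited values are taken as log2 from their range of 2.32 to 14.50. How background was corrected and arrays were normalized and summarised is not given in the sources used here. The submitters' processing notes name the build mm8. A normalization that differed between arrays would move all differences, which is why 2 other scalings were run.

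The 1214 rows hold the same values in both tables. Symbols came from the platform annotation, 13 of the 98 genes were renamed through RefSeq (GRCm38.p6), and rows with several symbols named no gene. Positions and sequences of the probe sets were not analysed here. Rows and lists were chosen with earlier results of these data known. The grouping of genes by role was made with the results known and serves description only.

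Levels were tested with limma 3.58.1 in R 4.3.3 (lmFit and eBayes, two-sided, no covariate) over 23332 rows, with Benjamini-Hochberg adjustment and calls at an adjusted p under 0.05. The index was tested the same way over 205449 exon-level probe sets of genes holding 4 or more of them. No filter on low values was applied. Errors are SE of a difference or SD of a group. Arrays give no counts, so their number sets the precision. The scripts were tested on simulated data.

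Named rows are, 1 per gene, up to 10 rises and 10 falls past the threshold without overlap, 5 in each direction by index p, the 5 genes with most rows, the 5 highest and 5 lowest offsets, the 3 highest and 3 lowest levels, and the rows of smallest p in each of 23 gene lists that hold any. Rows of a named gene are described beside it. Other genes with counts (such as Gps1, Hdac5 and Xpo7) and the diffSplice counts were described after their values were seen. Alternatives were a replicate block, low-value filters, eBayes with trend, quantile normalization, median centring, array weights, other thresholds and tables, other gene levels for the index, diffSplice and leaving out each array; a test of gene medians was chosen after seeing the data. Python 3.11.15 with matplotlib 3.10.9 drew the figures.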

Additional observations from a re-analysis of the deposited data

How the results depend on the processing

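Among the 16 rows named for a change in level and the 10 named by their index, no difference changed sign under any alternative that gave a value. For the 16 this was mostly fixed in advance. Their groups were chosen not to overlap, so leaving out or weighting arrays could not change a sign. The replicate block, thresholds, trend settings, low-value filter and exon-level table leave the difference itself unchanged. Rows named for their level or offset were not followed in this way. The count of 42 rows changed in level was 36 after quantile normalization, 28 after median centring and 59 with array weights. It was 123 at an adjusted p under 0.1 (94 higher and 29 lower), 99 with trend and robust settings and 165 of 1075 when rows dimmer than the 50th percentile were left out, where 22.2% of all rows kept passed. It was 1 when fitted over the exon-level table, 0 over the single probe-set rows alone (129 at an unadjusted p under 0.05) and 0 to 7 with 1 array left out. With the replicate number as a replicate block it was 0 (245 at an unadjusted p under 0.05); deviations of same-numbered arrays correlated at -0.01, -0.04 and 0.03, so the numbers were not taken to pair the mice. Of the 16 rows named for their level, 15 passed after quantile normalization, 13 after median centring, 1 over the exon-level table, and none with the replicate block or over the single probe-set rows alone. Why the calls were lost was not tested.

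The count of 0 rows changed in index stayed 0 under the limma alternatives, and diffSplice called 11. The median offset was 0.38 against probe sets outside these rows (390 rows had enough), 0.21 against the mean and -0.11 against the transcript cluster, and -0.015 to 0.0025 with 1 array left out. The test of gene medians called 3 of 97 genes (Ddx24, Ilf2 and Naa35), against 4.68% of all genes. Signal near the lowest values limits what the dim Mtif2 and Itch probe sets can show, and 3 arrays a group limit all of it.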
